A study of Mus musculus with 3 samples.

Results

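The genes of the Bcl2 family described here are 10 regulators of apoptosis. They comprise the pro-survival genes *Bcl2*, *Bcl2l1*, *Bcl2l2* and *Mcl1*, the effector *Bak1*, and the BH3-only genes *Bcl2l11*, *Bid*, *Bad*, *Bmf* and *Pmaip1*. They were taken as every array probe whose RefSeq accession maps to 1 of these symbols, which gave 19 probes for 10 of the 22911 genes named on the array. Their mRNA levels were measured in Colon26, a murine colon adenocarcinoma cell line of BALB/c origin, and in its sublines LuM1, labelled as high-metastatic, and NM11, labelled as low-metastatic. All 3 lines come from female mice according to the labels, carried no genetic change or drug treatment named there, and were grown for 3 days in RPMI1640 medium with fetal bovine serum and antibiotics. Each line is represented by 1 single-colour array, hybridized with copies of 0.1 µg of total RNA, so no difference below has a replicate check and no test was run. A subline is the descendant of cells selected from the parental line, and 1 sample of each was measured.

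Proteins of this family decide whether the outer membrane of the mitochondrion is breached. Effectors such as Bak1 and Bax form pores in that membrane, through which cytochrome c escapes and activates caspases, the proteases that dismantle the cell. Pro-survival members hold the effectors in check, and BH3-only members, produced or activated under stress, bind the pro-survival members or the effectors and tip the balance towards death.

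Signals were scaled so that the 75th percentile of each array became 585.1, and a gene with several probes is represented by its brightest one. In Colon26, LuM1 and NM11 cells, 49.9%, 53.8% and 52.5% of all probes were well above background by the scanner's flag, and none was saturated. Where a probe was not, only a bound is given, which makes no allowance for the scanner error of the dim signal. The dim line then enters a ratio with its own signal or, if that is smaller, with the dimmest signal that any probe well above background had there (26.4, 20.1 and 19.6 in the same order). Errors after ± are those of the scanner software, describe 1 spot and not the spread between cultures, and come to 0.20 on the log2 scale for most ratios. Signals of different probes are not comparable with each other, so levels are compared between lines only. Both sublines were set against the same Colon26 array, so an error on that array enters both ratios.

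Few markers of colon epithelium were detected in the lines. Of 12 colon epithelium markers, 4 were well above background in Colon26 cells, 5 in LuM1 cells and 4 in NM11 cells, with summed signals of 1321, 493 and 430, and *Cdh1*, *Cdh17*, *Cdx1*, *Vil1*, *Krt18*, *Krt19* and *Muc2* were so on no array. A sum over probes is set mostly by the brightest ones. From Colon26 to LuM1 cells *Krt20* fell from 651 to 54.5, and *Cdx2* and *Lgals4* fell too. *Krt8* instead rose from 28.9 to 107.6, and *Epcam* was well above background in LuM1 cells alone, at 28.0. Of 9 mesenchymal markers, 7, 9 and 9 were well above background, with summed signals of 179751, 146233 and 232163. These sums cover unlike changes, since *Col1a2* was at 59896, 49.6 and 85275 while *Thy1* and *Dcn* were at background in Colon26 cells and at 19560 and 27503 in LuM1 cells. Of 7 leukocyte markers, 4, 5 and 4 were so, with summed signals of 6509, 13321 and 5778, although *Ptprc* and *Adgre1* were so on no array, and *Cd68* alone went from 172 in Colon26 to 5251 in LuM1 cells. Of 5 endothelial markers, 1 was so on each array. The part of these markers in the differences below was not tested, and in bulk RNA fewer cells of a type and less RNA per cell cannot be told apart.

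The members at least 2-fold apart between any lines were 4 of the 5 BH3-only genes. Of these, *Bcl2l11* was so on 1 of its 3 measured probes, *Bmf* on 1 of 2, and *Bid* at the threshold. No share over all genes was taken for all comparisons together, so nothing is read from this count. Outside the 10, the BH3-only gene *Bbc3* was within 2-fold throughout (log2 ratios of -0.61, -0.32 and -0.29 for LuM1 over Colon26, NM11 over Colon26 and LuM1 over NM11). *Bik* was not well above background on any array, and *Hrk* is described below. In LuM1 cells, 4 of the 10 members were at least 2-fold apart from Colon26 cells, namely *Bcl2l11*, *Bid* and *Bmf* with higher signals and *Pmaip1* with a lower one, against 24.6% of all 14353 genes well above background in either line (12.9% with higher and 11.7% with lower signals). In NM11 cells, 3 of 10 were at least 2-fold apart, *Bcl2l11* with a higher signal and *Bmf* and *Pmaip1* with lower ones, against 15.9% of 14109 genes (8.17% higher and 7.74% lower). Between the sublines, *Bmf* was the 1 member of 9 at least 2-fold apart, with the higher signal in LuM1 cells, against 19.6% of 14415 genes (11.1% higher and 8.5% lower). Differences beyond the scanner error were seen for 7 of 9 members measured on both arrays in LuM1 over Colon26, for 6 of 8 in NM11 over Colon26 and for 4 of 8 in LuM1 over NM11, against 74.9%, 65.5% and 72.7% of all genes. At 1.5-fold, 5, 6 and 1 members were called, against 45%, 32.2% and 39.6% of genes. At 4-fold, *Pmaip1* alone was called against Colon26 in both sublines and *Bmf* alone between them, against 9.66%, 6.12% and 7% of genes. The median log2 ratio of the members measured on both arrays was 0.07 for LuM1 over Colon26, -0.20 for NM11 over Colon26 and 0.17 for LuM1 over NM11, beside -0.13, -0.02 and -0.11 over all named genes.

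**Figure D1:**
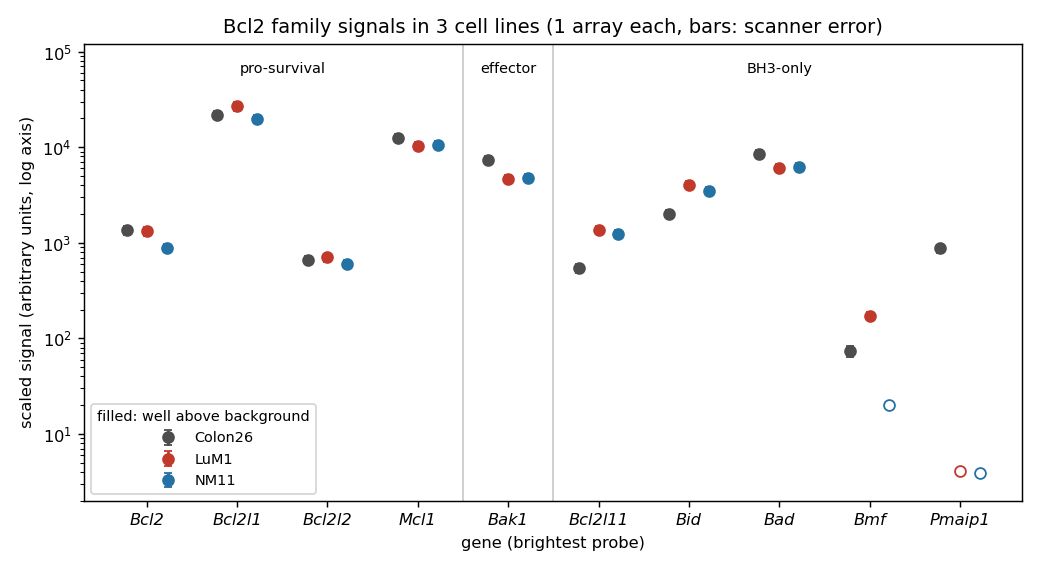
Scaled signal (arbitrary units, log axis) of the brightest probe of each member in Colon26, LuM1 and NM11 cells, with 1 array per line and bars for the scanner error. Filled circles are well above background and open circles are not. *Pmaip1* stands at 871 in Colon26 cells and at background in both sublines, while for each pro-survival gene the lines lie within 2-fold of each other.

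The pro-survival genes were within 2-fold in every comparison at the 75th percentile. Scaling to *Hprt* took *Bcl2* beyond it in NM11 over Colon26 (log2 ratio of -1.10), and *Bcl2* and *Bcl2l1* in LuM1 over NM11 (1.16 and 1.02). *Bcl2l1*, which encodes Bcl-xL, had scaled signals of 21761 ± 2176 in Colon26 cells, 26716 ± 2672 in LuM1 cells and 19762 ± 1976 in NM11 cells. The level in LuM1 cells was thus 1.23-fold that in Colon26 cells and 1.35-fold that in NM11 cells, with log2 ratios of 0.30 and 0.44 that exceeded the scanner error, while NM11 and Colon26 cells differed by less than it (-0.14). All 5 *Bcl2l1* probes gave the higher signal in LuM1 cells, and the log2 ratios of the other 4 over Colon26 lay between 0.38 and 0.53. For NM11 over Colon26, the same 4 probes lay between -0.19 and 0.01.

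*Bcl2*, the founding member and an inhibitor of both effectors, was lowest in NM11 cells. Its scaled signals were 1352 ± 135 in Colon26 cells, 1319 ± 132 in LuM1 cells and 887 ± 88.8 in NM11 cells. Colon26 and LuM1 cells differed by less than the scanner error, whereas the level in NM11 cells was below both, with log2 ratios of -0.61 over Colon26 and 0.57 for LuM1 over NM11. The other *Bcl2* probe (RefSeq NM_177410) had the same order of the lines, with signals of 1031, 857 and 712 and a log2 ratio of -0.53 for NM11 over Colon26. On that probe LuM1 cells also lay below Colon26 cells, with a log2 ratio of -0.27.

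*Mcl1*, whose short-lived protein holds back Bak1 in particular, had scaled signals of 12564 ± 1256 in Colon26 cells, 10380 ± 1038 in LuM1 cells and 10529 ± 1053 in NM11 cells. Both sublines lay slightly below the parental line, by log2 ratios of -0.28 and -0.25, and they did not differ from each other beyond the scanner error (-0.02). *Bcl2l2*, which encodes Bcl-w, had scaled signals of 668 ± 67.0, 702 ± 70.3 and 601 ± 60.2 in Colon26, LuM1 and NM11 cells. LuM1 and NM11 cells each differed from Colon26 cells, which lay between them, by less than the scanner error, whereas LuM1 over NM11 had a log2 ratio of 0.22 against an error of 0.20.

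The effector *Bak1* was lower in both sublines. Its scaled signals were 7379 ± 738 in Colon26 cells, 4663 ± 466 in LuM1 cells and 4787 ± 479 in NM11 cells, so the level in Colon26 cells was 1.58-fold that in LuM1 cells and 1.54-fold that in NM11 cells. The log2 ratios of -0.66 and -0.62 exceeded the scanner error, and the sublines were alike within it (-0.04). *Bax*, the other main effector, which was not among the 10 genes, had log2 ratios of -0.37 and -0.26 in LuM1 and NM11 cells.

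Of the BH3-only genes, *Bcl2l11*, which encodes Bim, a binder of all pro-survival members, had the clearest disagreement between probes. The brightest probe (A_52_P158527) had scaled signals of 542 ± 54.4 in Colon26 cells, 1368 ± 137 in LuM1 cells and 1249 ± 125 in NM11 cells. By this probe the level was 2.53-fold higher in LuM1 cells and 2.31-fold higher in NM11 cells than in Colon26 cells (log2 ratios of 1.34 and 1.21), and the sublines did not differ beyond the scanner error. Another probe (A_55_P2504051, RefSeq NM_001284410) went the opposite way, with signals of 127 in Colon26 cells, 78.6 in LuM1 cells and 75.6 in NM11 cells and log2 ratios of -0.70 and -0.75. A further one (A_51_P484880, RefSeq NM_207680) had signals of 146, 76.2 and 113 and log2 ratios of -0.94 and -0.37. The fourth (A_52_P348214) was not well above background on any array.

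The mean log2 ratio over the 3 measured *Bcl2l11* probes was -0.10 for LuM1 over Colon26 and 0.03 for NM11 over Colon26, so the direction given for this gene holds for 1 of its 3 measured probes. The brightest probe and the one at 146, 76.2 and 113 carry the same RefSeq accession. On the LuM1 array, 4 of the 9 spots near the brightest probe that were dark on the other arrays were well above background, with a median signal of 13.7 over the 9, against 1368 for the probe itself.

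**Figure D2:**
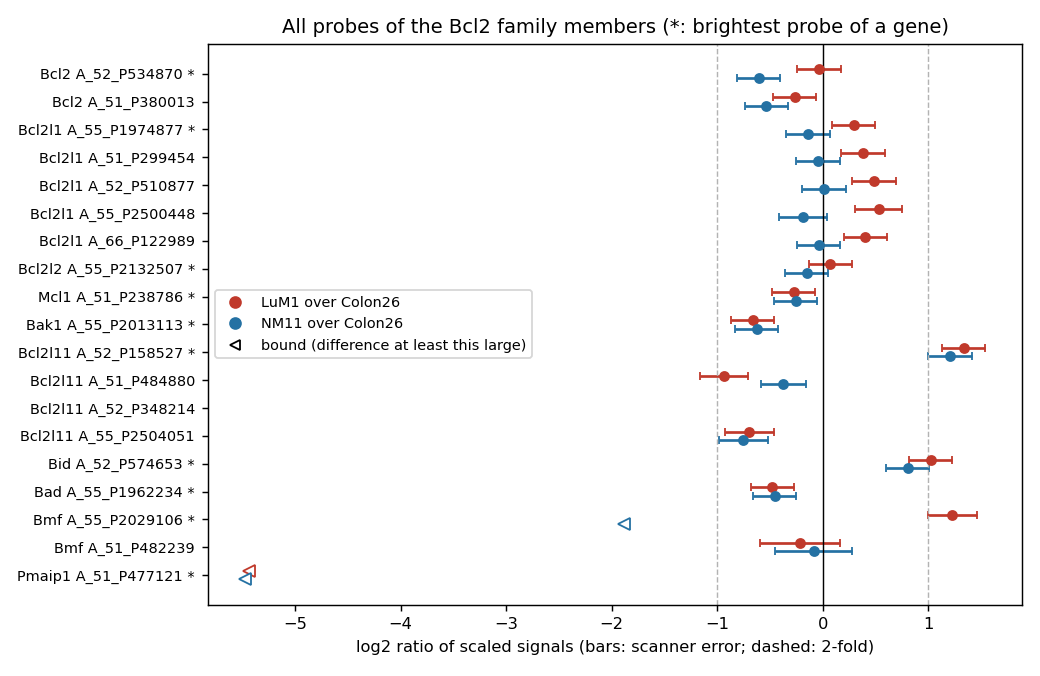
Log2 ratio of scaled signals for each of the 19 probes of the 10 members, LuM1 over Colon26 in red and NM11 over Colon26 in blue, with bars for the scanner error, open triangles for bounds and dashed lines at 2-fold. The 5 *Bcl2l1* probes lie together, whereas the *Bcl2l11* probe with ratios of 1.34 and 1.21 stands opposite the others of its gene; the fourth *Bcl2l11* probe has no ratio.

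*Bid*, which links death receptors to mitochondria once caspase 8 has cut its protein, had scaled signals of 1998 ± 200 in Colon26 cells, 4057 ± 406 in LuM1 cells and 3492 ± 349 in NM11 cells. The lines were thus ordered LuM1, NM11 and Colon26. The step between the sublines, a log2 ratio of 0.22 against an error of 0.20, only just exceeded the scanner error. It came to 0.17 with the percentile over probes counted once, a setting chosen after seeing the data. Over the 8 ways of scaling or background correction compared below, it lay between 0.22 and 0.81. Its size thus depended on the scaling, and with 1 array per line the order of the sublines is not secure. The level in LuM1 cells was 2.03-fold that in Colon26 cells (log2 ratio of 1.02) and the level in NM11 cells 1.75-fold (0.81). The ratio for LuM1 lies at the 2-fold threshold. It came to 0.9994 on the log2 scale, just under 2-fold, when outlier spots were kept out of the percentile, a setting chosen after seeing the data, and *Bid* should be read as lying at the threshold and not beyond it.

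*Bad*, whose protein binds Bcl2 and Bcl-xL unless survival signalling phosphorylates it, was lower in both sublines. Its scaled signals were 8525 ± 853 in Colon26 cells, 6120 ± 612 in LuM1 cells and 6218 ± 622 in NM11 cells, with log2 ratios of -0.48 and -0.46 over Colon26. The sublines did not differ beyond the scanner error. The spot lay in a bright patch of the NM11 array, where 6 of 7 nearby spots that were dark on the other arrays were well above background. Their median was 101.5 against 6218 for *Bad*. Without that spot *Bad* had no value in NM11 cells, and its ratio in LuM1 cells was the same.

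*Bmf*, whose protein is held at the cytoskeleton until cells detach or are stressed, was the 1 member at least 2-fold apart between the sublines. The scaled signal of the brightest probe was 73.4 ± 9.22 in Colon26 cells and 171.9 ± 17.7 in LuM1 cells, and came to 19.9 in NM11 cells, where it was not well above background. The level in LuM1 cells was 2.34-fold that in Colon26 cells (log2 ratio of 1.23 with an error of 0.23). With the dim NM11 signal taken as it stands, LuM1 cells exceeded NM11 cells by 8.64-fold and Colon26 cells did so by 3.69-fold. The scanner error of that dim signal was 4.57, so neither ratio is a strict minimum. The other *Bmf* probe was dim on all 3 arrays, with signals of 33.1, 28.5 and 31.2, and its lines did not differ beyond the scanner error. The difference therefore rests on 1 of the 2 probes. For LuM1 over NM11, the log2 value of 3.11 fell to 1.45 with normexp background correction, and the mean over both probes was 1.49. For NM11 over Colon26, the log2 value of -1.88 became -0.71 with normexp.

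*Pmaip1*, which encodes Noxa, a binder of Mcl1 and a target of p53, had the widest difference of the family. Its 1 probe had a scaled signal of 871 ± 87.3 in Colon26 cells and was not above background in either subline, with 4.13 in LuM1 cells and 3.95 in NM11 cells. These dim values are the scanner error written in place of a signal, and the background-subtracted brightness as deposited was -5.20 and -4.02. Colon26 cells thus exceeded LuM1 cells by at least 43.3-fold and NM11 cells by at least 44.5-fold, and the sublines cannot be ranked. With normexp, the log2 ratios were -3.96 and -3.63, beside bounds of -5.44 and -5.48. *Pmaip1* was 1 of 413 genes whose brightest probe passed the detection flag only on the Colon26 array, and 13 of these, itself included, had a bound at least as high.

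Since neighbouring spots of an array can be bright together, the 24 spots nearest to each probe were examined. Around *Pmaip1* on the Colon26 array, none of the 8 spots that were dark on the other arrays was well above background, and their median signal was 5.38. A different picture was seen for *Hrk*, a BH3-only gene outside the 10, whose brightest probe likewise passed the detection flag in Colon26 cells alone, with a signal of 230. There all 3 such spots were well above background, with a median of 196, and the other *Hrk* probe was at 5.58. Leaving out spots in such patches, a setting chosen after seeing the data, left the counts of members at least 2-fold apart at 4, 3 and 1.

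**Figure D3:**
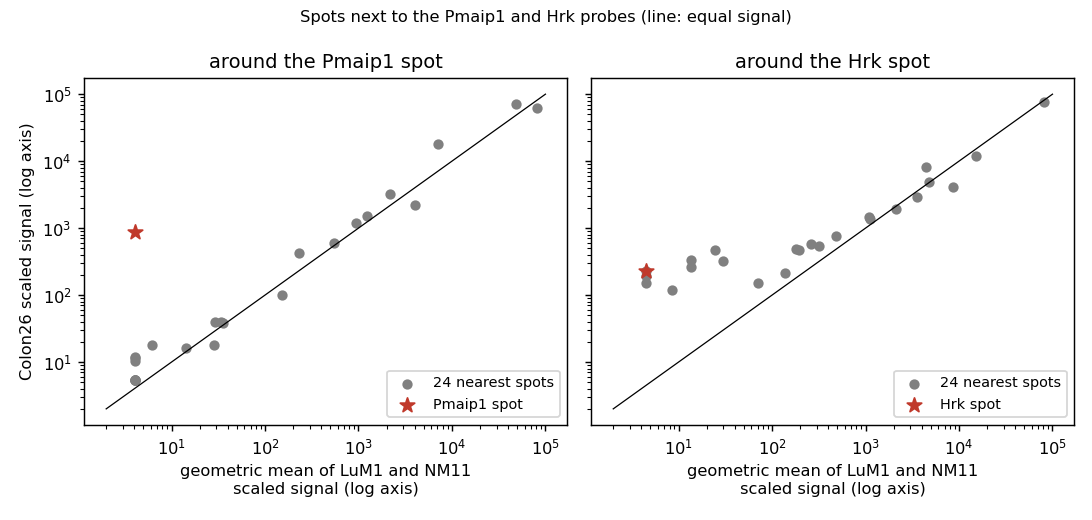
Colon26 signal against the geometric mean of the LuM1 and NM11 signals (both scaled, log axes) for the *Pmaip1* and *Hrk* spots (stars) and the 24 spots nearest to each (grey), with a line at equal signal. The *Pmaip1* spot stands alone at 871, while dim spots around *Hrk* lie above the line with it.

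Promoter sequences of 9 members were read from RefSeq (GRCm38.p6), with 250 bases before and 50 after each start site, 15 windows in all. The motif counts below do not cover *Pmaip1*, for which there was no window. The windows shown are those of *Bcl2l11* (first start site), with the highest ratios over Colon26 in both sublines by its brightest probe, of *Bid*, and of *Bak1*, which was lower in both. The arrays were designed on an earlier genome build, so windows were matched by gene symbol only. Capitals mark GC boxes (GGGCGG) and the FoxO core (GTAAACA), searched on both strands. The windows, 5′ to 3′, are chr2:128125788-128126087 on the plus strand, chr6:120916775-120917074 on the minus strand and chr17:27028578-27028877 on the minus strand.
Bcl2l11: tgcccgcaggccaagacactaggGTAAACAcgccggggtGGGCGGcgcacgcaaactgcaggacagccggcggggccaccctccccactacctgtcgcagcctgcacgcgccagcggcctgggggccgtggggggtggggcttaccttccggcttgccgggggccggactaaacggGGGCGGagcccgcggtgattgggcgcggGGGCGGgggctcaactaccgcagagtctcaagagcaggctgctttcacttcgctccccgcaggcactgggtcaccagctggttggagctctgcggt
Bid: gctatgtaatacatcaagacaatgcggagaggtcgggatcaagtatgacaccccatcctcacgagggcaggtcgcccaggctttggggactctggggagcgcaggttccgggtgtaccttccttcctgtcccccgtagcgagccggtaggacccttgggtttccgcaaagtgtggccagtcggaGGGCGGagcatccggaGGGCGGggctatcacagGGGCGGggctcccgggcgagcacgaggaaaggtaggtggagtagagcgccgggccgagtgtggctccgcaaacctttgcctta
Bak1: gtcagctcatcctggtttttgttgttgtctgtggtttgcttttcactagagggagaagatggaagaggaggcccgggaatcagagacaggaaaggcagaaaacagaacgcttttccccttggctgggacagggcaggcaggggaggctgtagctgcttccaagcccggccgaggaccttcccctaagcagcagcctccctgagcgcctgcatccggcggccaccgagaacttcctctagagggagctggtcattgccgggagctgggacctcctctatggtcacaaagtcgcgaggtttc

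The GC box was found in 8 of the 15 windows, against 35.7% of 32851 promoters of the same length. The windows of *Bcl2l11* and *Bid* printed above hold 3 each and that of *Bak1* holds 0. Among those not printed, the window of *Bcl2*, lowest in NM11 cells, holds 7. Those of *Bad*, lower in both sublines, hold 4 and 0, and those of *Bmf* hold 1, 0 and 0. *Bcl2l2* and *Mcl1* have 1 each, the second *Bcl2l11* window has 3, and every *Bcl2l1* window has 0. A relation between these counts and the direction of the differences was not tested. The FoxO core was found in the window of *Bcl2l11* alone, 1 of 15, against 3.65% of all promoters. The E-box CACGTG was found in 0 of 15, against 7.15%, and none of these matches overlapped another motif. A match describes the letters of the window and not a bound site.

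Between members that bind each other, the difference of their log2 ratios is free of any constant factor by which an array is scaled, though not of quantile normalization or background correction. The shift of *Bcl2l1* between LuM1 and Colon26 cells exceeded that of *Bak1* by 0.96 ± 0.29 on the log2 scale, and that of *Bad* by 0.77 ± 0.29. In NM11 cells the same differences were 0.49 and 0.32. Against *Bid*, the difference ran the other way, with *Bcl2l1* moving by -0.73 ± 0.29 in LuM1 cells and by -0.94 ± 0.29 in NM11 cells. *Mcl1* moved against *Bid* by -1.30 ± 0.29 in LuM1 cells and by -1.06 ± 0.29 in NM11 cells. Against the brightest *Bcl2l11* probe *Mcl1* moved by -1.61 and -1.46, and *Bcl2* by -1.37 and -1.81, in LuM1 and NM11 cells. These comparisons inherit the disagreement of the *Bcl2l11* probes. The shift of *Mcl1* over Colon26 exceeded that of *Bak1* by 0.39 ± 0.29 in LuM1 cells and by 0.37 ± 0.29 in NM11 cells. Between the sublines, the shifts of *Mcl1* and *Bak1* differed by 0.02 ± 0.29. The 7 pairs examined were chosen from known binding with the values in view.

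The ratios to Colon26 most like those of the brightest *Bcl2l11* probe, by Euclidean distance over both log2 ratios, were those of *Tnip1* (distance 0.03), *Naip2* (0.05) and *B2m* (0.05). Among 12248 genes measured on all 3 arrays, 46 lay within 0.2. The other measured *Bcl2l11* probes had negative log2 ratios in both sublines, so this likeness holds for the brightest probe only. For *Bid*, the closest were *Lnx2* (0.01), *Mark4* (0.02) and *Trim2* (0.04), and 101 genes lay within 0.2. With so many genes this close, the order among them falls within the scanner error.

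**Figure D4:**
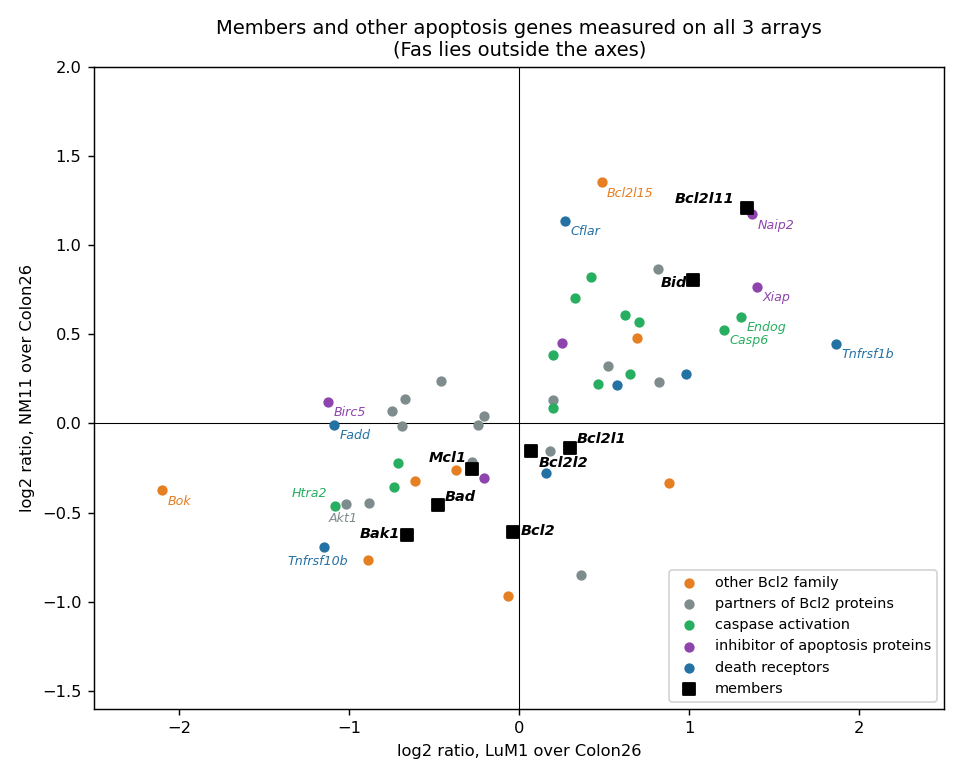
Log2 ratio of scaled signals in NM11 over Colon26 cells against LuM1 over Colon26 cells for members (black squares) and other apoptosis genes (circles, coloured by list) measured on all 3 arrays, with genes at least 2-fold apart in either ratio named. Each gene is shown by its brightest probe. *Fas*, with log2 ratios of 6.09 in LuM1 and 4.84 in NM11 over Colon26 cells, lies outside the axes. *Bcl2l11*, whose other measured probes go the opposite way, and *Bid* lie to the upper right with *Naip2*, and *Bak1* and *Bad* to the lower left.

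The counts of related genes below stand beside the shares over all genes given above, 12.9% higher and 11.7% lower in LuM1 over Colon26 cells and 8.17% and 7.74% in NM11 over Colon26 cells, and nothing is read from lists this short. Of the 14 other genes of the family on the array, 10 were well above background in LuM1 or Colon26 cells, and 2 of these had lower signals by at least 2-fold in LuM1 cells and 0 higher ones. *Bok*, a further pore-forming relative, had scaled signals of 4911 in Colon26 cells, 1145 in LuM1 cells and 3786 in NM11 cells, a log2 ratio of -2.10 for LuM1 over Colon26. The other one was *Hrk*, whose spot lay in the patch described above. In NM11 cells *Bcl2l15*, a divergent relative, had a signal of 504 against 198 in Colon26 cells and 276 in LuM1 cells. The other *Bcl2l15* probe was at 5.56 in Colon26, 4.22 in LuM1 and 4.02 in NM11 cells, so this difference rests on the brightest probe alone. *Bnip3l*, which marks mitochondria for removal, had a log2 ratio of 1.21 for LuM1 over NM11. *Bcl2a1d*, a pro-survival gene with close copies that a probe may not separate, was well above background in LuM1 cells alone, with a signal of 42.2.

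Genes of caspase activation described here numbered 13. In LuM1 cells, 2 of them had at least 2-fold higher signals than in Colon26 cells and 1 a lower one. *Casp6* and *Endog*, a protease and a nuclease of the execution phase, exceeded their Colon26 signals by 2.30-fold and 2.47-fold in LuM1 cells. The caspase activator *Htra2* had a log2 ratio of -1.09. In NM11 cells, 0 of these 13 genes were at least 2-fold apart from Colon26 cells.

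Of the 6 inhibitor of apoptosis genes well above background in LuM1 or Colon26 cells, 3 had higher signals by at least 2-fold in LuM1 cells and 1 a lower one, against 12.9% and 11.7% of all genes. *Xiap*, a direct caspase inhibitor, had signals of 1256 in Colon26 cells, 3308 in LuM1 cells and 2134 in NM11 cells. *Birc3* was at background in Colon26 cells and at 212 and 208 in the sublines, at least 8.02-fold and 7.86-fold higher. *Naip2* was higher in both sublines (log2 ratios of 1.37 and 1.17), and *Birc5*, which also serves in cell division, had a log2 ratio of -1.13 in LuM1 cells and 0.12 in NM11 cells.

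Genes of death receptor signalling were listed as receptors and adaptors together, and 8 were well above background in LuM1 or Colon26 cells. By at least 2-fold, 2 had higher and 2 lower signals in LuM1 cells, and 2 higher and 0 lower ones in NM11 cells. *Fas*, the receptor upstream of caspase 8 and *Bid*, had signals of 48.1 in Colon26 cells, 3276 in LuM1 cells and 1381 in NM11 cells, 68.1-fold and 28.7-fold above Colon26. *Tnfrsf1b* had a log2 ratio of 1.86 in LuM1 cells, and *Cflar*, an inhibitor of caspase 8, one of 1.14 in NM11 cells. The adaptor *Fadd* and the receptor *Tnfrsf10b* had log2 ratios of -1.09 and -1.15 in LuM1 cells.

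Of 16 binding partners and modifiers of the family, 1 had a higher and 1 a lower signal by at least 2-fold in LuM1 than in Colon26 cells, and 0 in either direction in NM11 cells. These were *Pim2*, a kinase of Bad with a background signal in Colon26 cells that was exceeded by at least 2.29-fold in LuM1 cells, and *Akt1*, also a kinase of Bad, with a log2 ratio of -1.02. *Pim1* had a log2 ratio of 1.22 for LuM1 over NM11.

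The direction of the small differences depended on the scaling, which shifts all genes of an array together. With the processed table of the authors, the median log2 ratio over all genes moved by 0.45 for LuM1 over Colon26 and by 0.41 for LuM1 over NM11 from its place under the 75th percentile. Scaling to *Hprt* shifted it by -0.49 for NM11 over Colon26, by 0.59 for LuM1 over NM11 and by 0.10 for LuM1 over Colon26. The E1A spike-in controls shifted NM11 over Colon26 by -0.33 and LuM1 over NM11 by 0.33, and leaving out scaling shifted LuM1 over Colon26 by 0.11 and LuM1 over NM11 by 0.18. Over 8 ways of scaling or background correction, the sign turned for *Bcl2* and *Mcl1* in LuM1 over Colon26, and for *Mcl1*, *Bak1* and *Bad* in LuM1 over NM11. *Bcl2l11* (brightest probe), *Bid*, *Bmf* and *Pmaip1* kept their signs over these 8 in every comparison in which they had a value. The log2 ratio of *Bak1* lay between -0.68 and -0.22 for LuM1 over Colon26 and between -1.11 and -0.59 for NM11 over Colon26.

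**Figure D5:**
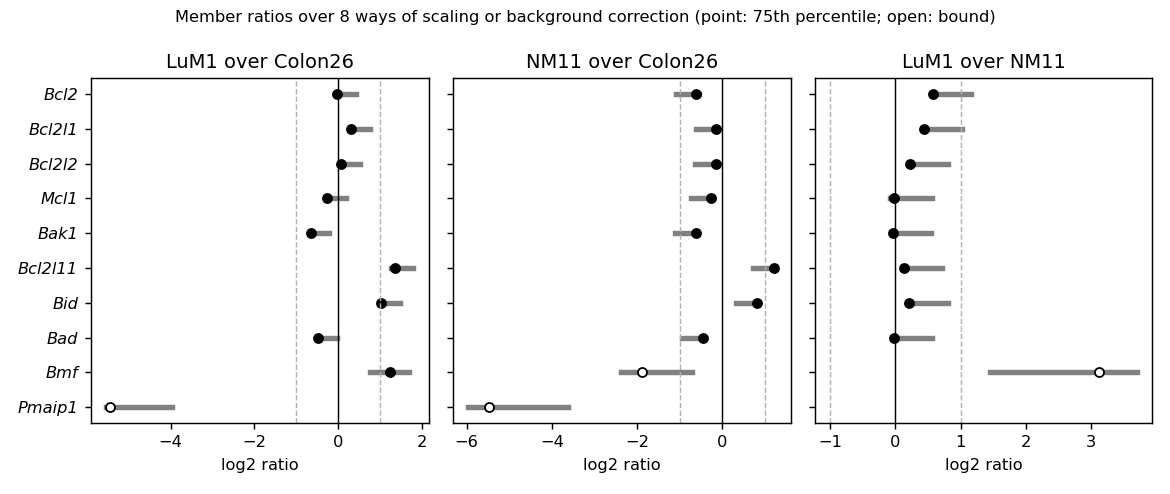
Log2 ratio of each member in the 3 comparisons at the 75th percentile scaling (points, open for bounds) and its range over 8 ways of scaling or background correction (grey bars), with dashed lines at 2-fold. *Pmaip1* stays far below 0 against Colon26, while the bars of *Bcl2* and *Mcl1* cross 0 in LuM1 over Colon26.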

How the data were processed

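Total RNA of 3 cultured cell lines was read on single-colour arrays, 1 array per line, on 1 slide. The authors deposited the intensity of each spot from Agilent Feature Extraction 11.5.1.1 (per the submitters' processing notes), background-subtracted and detrended within each array without scaling between arrays, with flags of 0 or 1 for outliers, saturation and detection. They also deposited a table of processed intensity values, which equal the scanner signal multiplied by a constant of each array (0.654, 0.829 and 0.706 in the order Colon26, LuM1, NM11); its normalization is not given in the sources used here, the medians of its columns were 22.6, 35.4 and 22.2, and its scale was found to be linear and uncentred.

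Control spots and outlier spots (137, 74 and 99 on the Colon26, LuM1 and NM11 arrays) were left out, repeated spots of a probe were averaged, and signals were multiplied to a common 75th percentile, taken over all spots of the 56605 transcriptome probes (581.1, 625.1 and 551.5 as deposited). After member values had been seen, the percentile was also taken without outlier spots (567.1, 619.8 and 545.3) and over probes counted once (398.0, 433.4 and 371.1). Probes were named through unversioned RefSeq accessions in a GRCm38.p6 gene table, which named 32994 (58.3%) of them. A difference was called at 2-fold. Genes named beyond the 10 members were those of lists of related genes at least 2-fold apart in any comparison, their nearest effector *Bax*, and the BH3-only genes *Bbc3* and *Bik*. The 3 genes closest to a member that was measured on all arrays and spanned at least 2-fold were named too. The members, lists and rules were chosen with earlier results of these data known. A gene of the caspase activation list is not reported here.

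Alternatives were no scaling, the median of measured probes, *Hprt*, E1A spike-in controls, quantile normalization, normexp with an offset of 50, the authors' values, detection by the looser flag, dim probes at face value, the mean over probes, the probe brightest in LuM1 cells, and thresholds of 1.5-fold and 4-fold. Leaving out bright patches (at least 50% of at least 3 dark neighbours among the 24 nearest spots well above background) and the 2 other percentiles were added after seeing the data. The normexp correction used the median brightness of each spot. The number of arrays limits the precision. Normexp was run in limma 3.58.1 (R 4.3.3). All other steps used Python 3.11.15 (pandas 2.3.3, numpy 2.4.6, matplotlib 3.10.9, scipy 1.17.1).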

Additional observations from a re-analysis of the deposited data

How the results depend on the processing

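The counts of members at least 2-fold apart were 4 (LuM1 over Colon26), 3 (NM11 over Colon26) and 1 (LuM1 over NM11). For LuM1 over Colon26, normexp left 2 (*Bcl2l11* and *Pmaip1*), the mean over probes left 2 (*Bid* and *Pmaip1*) and the 4-fold threshold left 1 (*Pmaip1*). For NM11 over Colon26, the mean over probes left 1 and the 4-fold threshold 1, in both cases *Pmaip1*, and the 1.5-fold threshold gave 6. Scaling to *Hprt* gave 3 for LuM1 over NM11 (*Bcl2*, *Bcl2l1* and *Bmf*) and 4 for NM11 over Colon26, all lower (*Bcl2*, *Bak1*, *Bmf* and *Pmaip1*), with *Bak1* at -1.11. The mean over probes turned the log2 ratio of *Bcl2l11* in LuM1 over Colon26 to -0.10, because 2 of its 3 measured probes run the other way. *Bcl2l11* fell under 2-fold in NM11 over Colon26 with *Hprt* (0.72) and E1A scaling (0.88). With normexp, the *Bmf* ratios against Colon26 were 0.75 and -0.71. Of 404 alternative log2 ratios of single members, 24 had the opposite sign, over 7 ratios, among them the 5 small ones named in the report and *Bcl2l11* in LuM1 over NM11 (-0.13 as the mean over probes). *Pmaip1* passed 2-fold against Colon26 under each alternative run.

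No paired analysis was possible because each line has 1 array and the lines share fewer than 2 replicate numbers. Naming probes through a gene name column was not run, since the array files used here hold accessions only. Signal over background limits *Bmf* and *Pmaip1*, which have bounds in 1 and 2 lines.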
